A study of Saccharomyces cerevisiae with 15 samples.

Results

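The 3′ segment of the 25S rRNA gene is the last of 3 equal segments of 25S and holds 1132 of the 6858 positions of the 35S gene, the Pol I transcript that yields the ribosomal RNAs. It runs from position 5516 to position 6647, where position 1 is the first nucleotide of the 35S gene, and it was chosen by coordinates alone, so no measured value entered the choice. In the R64 genome it lies on the minus strand of chromosome XII, at chrXII:460923-462054, at the end of the gene RDN25-2 (chrXII:460923-464318) and inside the mature 25S exon of the 35S precursor. The same letters occur at 2 places on that chromosome, RDN25-1 and RDN25-2. Reads of the rDNA repeats cannot be assigned to one copy.

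Pol I occupancy was measured by native elongating transcript sequencing (NET-seq) in wild-type *Saccharomyces cerevisiae*, budding yeast whose Pol I subunit Rpa135 carries an HA tag for immunoprecipitation. In NET-seq the 3′ ends of the RNA purified with the polymerase are sequenced, so each read is placed at the last nucleotide incorporated. There were 5 groups of 3 libraries, which differed in what was added to the lysate before Pol I was purified. MnCl2 + DNase I lysates received 10 mM MnCl2 and 100 U/mL DNase I, and MnCl2 lysates received 10 mM MnCl2 alone, and both were held on ice for 20 minutes and for 30 minutes more once EDTA was in. CaCl2 + MNase lysates received 5 mM CaCl2 and 100 U/µL micrococcal nuclease (MNase), and CaCl2 lysates received 5 mM CaCl2 alone, both for 2 minutes at 37 °C. A protocol text of the labels names DNase I for the MNase step, and the group name was followed here. These 4 groups received EDTA at 5 mM, which binds divalent cations. Untreated lysates received nothing and were not incubated, so the effects of a cation, of EDTA and of the incubation cannot be told apart in a comparison with untreated. MNase depends on calcium, and DNase I depends on divalent metal ions, of which manganese is one.

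The 25S rRNA is the large RNA of the 60S ribosomal subunit. Its 3′ portion holds the peptidyl transferase loop, where peptide bonds form, and the sarcin-ricin loop, which the translation factors contact, and it carries several bases that are modified after transcription. Its mature 3′ end is made by cleavage of the downstream spacer ETS2 by Rnt1 followed by trimming. Pol I preparations can also carry mature rRNA, and a read from mature rRNA cannot be told apart from a nascent one inside the 25S gene. How much of the signal described below came from mature rRNA was not tested.

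The sequences that the results turn on are given below as RNA, 5′ to 3′, read from the base column of the deposited tables, which matched R64 at 6858 of 6858 positions. The position named stands in capitals, except in the 2 loops, where the letters searched for (CGAGAGG and GAUAACU) stand in capitals. The first of these motifs occurred 2 times in the 35S gene and 1 time in the region, and the other occurred 1 time in the 35S gene. The mature end is shown because it held the highest signal, position 6411 because it had the largest rise of the named positions, position 5891 because it had the largest fall, and positions 6628 and 6168 because they fell in all 4 treated groups. The loops are shown as landmarks of the mature rRNA.
mature end, capital at position 6646 (chrXII:460921-460973): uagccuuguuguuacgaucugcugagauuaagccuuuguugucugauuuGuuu
position 6411 (chrXII:461147-461171): ugauuucuuugcUccacacaauaua
position 6628 (chrXII:460930-460954): ugcugagauuaaGccuuuguugucu
position 6168 (chrXII:461390-461414): ucgguaagcguuGgauuguucaccc
position 5891 (chrXII:461667-461691): aucuguuaaacgAuaacgcagaugu
sarcin-ricin loop, A at position 6278 (chrXII:461280-461304): gaacuuaguaCGAGAGGaacaguuc
peptidyl transferase loop, A at position 6071 (chrXII:461487-461511): accacaggGAUAACUggcuuguggc

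The values are CPM, the reads at a position scaled so that each library sums to 1000000 over the 35S gene up to the terminator T1 (position 6739). Whole reads could be recovered from the CPM in 13 of 15 libraries, and these held 2835830 to 7040550 reads on the 35S gene, of which 611187 to 1501067 lay in the region. In those libraries 1 read was worth 0.142 to 0.353 CPM, and the median position of the region held 128 to 145 CPM. The depth of the other 2 libraries, CaCl2 replicate 3 and CaCl2 + MNase replicate 3, is not given here. Spearman's rho across the 1132 positions between libraries of 1 group, a description over positions that share a library, was 0.991 to 0.995 in MnCl2 + DNase I, 0.975 to 0.994 in MnCl2, 0.976 to 0.985 in CaCl2 + MNase, 0.912 to 0.979 in CaCl2 and 0.961 to 0.982 in untreated. CaCl2 replicate 2 stood apart from its group, with a mean rho of 0.914 to the other CaCl2 libraries. The total counts of called positions without it are given for CaCl2 against untreated and for MnCl2 against CaCl2. The study's methods describe a separate culture for each untreated replicate, and the labels do not say whether the treated libraries of a group came from separate cultures, so the p-values below measure the spread between libraries, which may be technical.

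The region was crossed by peaks and valleys of occupancy in all groups. It took 23.8% ± 0.302 of the 35S signal in MnCl2 + DNase I, 23.8% ± 0.0267 in MnCl2, 20.7% ± 0.154 in CaCl2 + MNase, 20.8% ± 0.638 in CaCl2 and 22.2% ± 0.358 in untreated (SD, n = 3 each). As a share of the 35S signal, all 6 libraries with MnCl2 lay above the untreated libraries, and all 6 with CaCl2 lay below them. The 5 groups differed (F = 49.1, exact permutation test over all assignments of the 15 libraries, one-sided, p = 6.64e-05). A single pair of groups of 3 cannot go below p = 0.1 in an exact two-sided permutation test, and each of the 4 treated groups against untreated was at that limit. The nucleases moved the share by less than the spread between libraries, since MnCl2 + DNase I overlapped MnCl2 and CaCl2 + MNase overlapped CaCl2.

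The share was also taken without 10 positions, those with the highest mean over all 15 libraries. Some of these, such as position 6411, were high only with MnCl2, so leaving them out had to lower the MnCl2 groups. It does not show that the higher share with MnCl2 lay in these positions alone. Without them, the region held 20.2% ± 0.151 of the 35S signal in MnCl2 + DNase I and 20.5% ± 0.120 in MnCl2, against 20.6% ± 0.279 in untreated (SD, n = 3 each). Both groups then overlapped untreated, and MnCl2 + DNase I lay below MnCl2 in all libraries, at the smallest exact p of 0.1. The lower share with CaCl2 was still there without these positions, at 19.0% ± 0.223 in CaCl2 + MNase and 19.2% ± 0.560 in CaCl2, with all 6 libraries below untreated. The spacers, which leave the precursor and so cannot carry mature rRNA, moved at the same time. They held 1.10% ± 0.0382 of the 35S signal in MnCl2 + DNase I, 1.21% to 1.58% in the MnCl2 libraries, 4.95% ± 0.139 in CaCl2 + MNase, 4.08% ± 1.38 in CaCl2 and 6.85% ± 0.279 in untreated (SD, n = 3 each). As a share of the 25S signal alone, the region held 38.0% ± 0.310 in MnCl2 + DNase I and 38.2% ± 0.619 in MnCl2. Untreated held 37.6% ± 0.425 and overlapped both, so the MnCl2 groups were set apart only as a share of 35S. CaCl2 + MNase, at 35.8% ± 0.214, and CaCl2, at 35.4% ± 0.460, stayed below untreated in all libraries (SD, n = 3 each). The part of the spacers in the share of the 35S signal was not tested.

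Within 25S, the region (segment 3) was more occupied than segment 1 in every group. The ratio of segment 3 to segment 1 was 1.34 in MnCl2 + DNase I, 1.36 in MnCl2, 1.13 in CaCl2 + MNase, 1.13 in CaCl2 and 1.23 in untreated (exact permutation test over 5 groups, adjusted p = 0.000107 over 2 ratios). The ratio of segment 3 to segment 2 was 1.13 in MnCl2 + DNase I, 1.13 in MnCl2, 1.10 in CaCl2 + MNase and 1.07 in CaCl2, against 1.18 in untreated (adjusted exact permutation p = 0.00042). In all libraries with MnCl2 the first ratio lay above untreated and the other below it, and in all libraries with CaCl2 both lay below untreated, each pair of groups at the smallest exact p of 0.1. At the upstream edge, the first 50 positions inside the region averaged 138 ± 1.76 CPM in MnCl2 + DNase I and 192 ± 14.7 CPM in untreated (SD, n = 3 each). The 50 positions before the region averaged 147 ± 1.14 CPM in MnCl2 + DNase I and 212 ± 4.84 CPM in untreated, so the level just inside was a little lower than that just before in both groups.

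**Figure D1:**
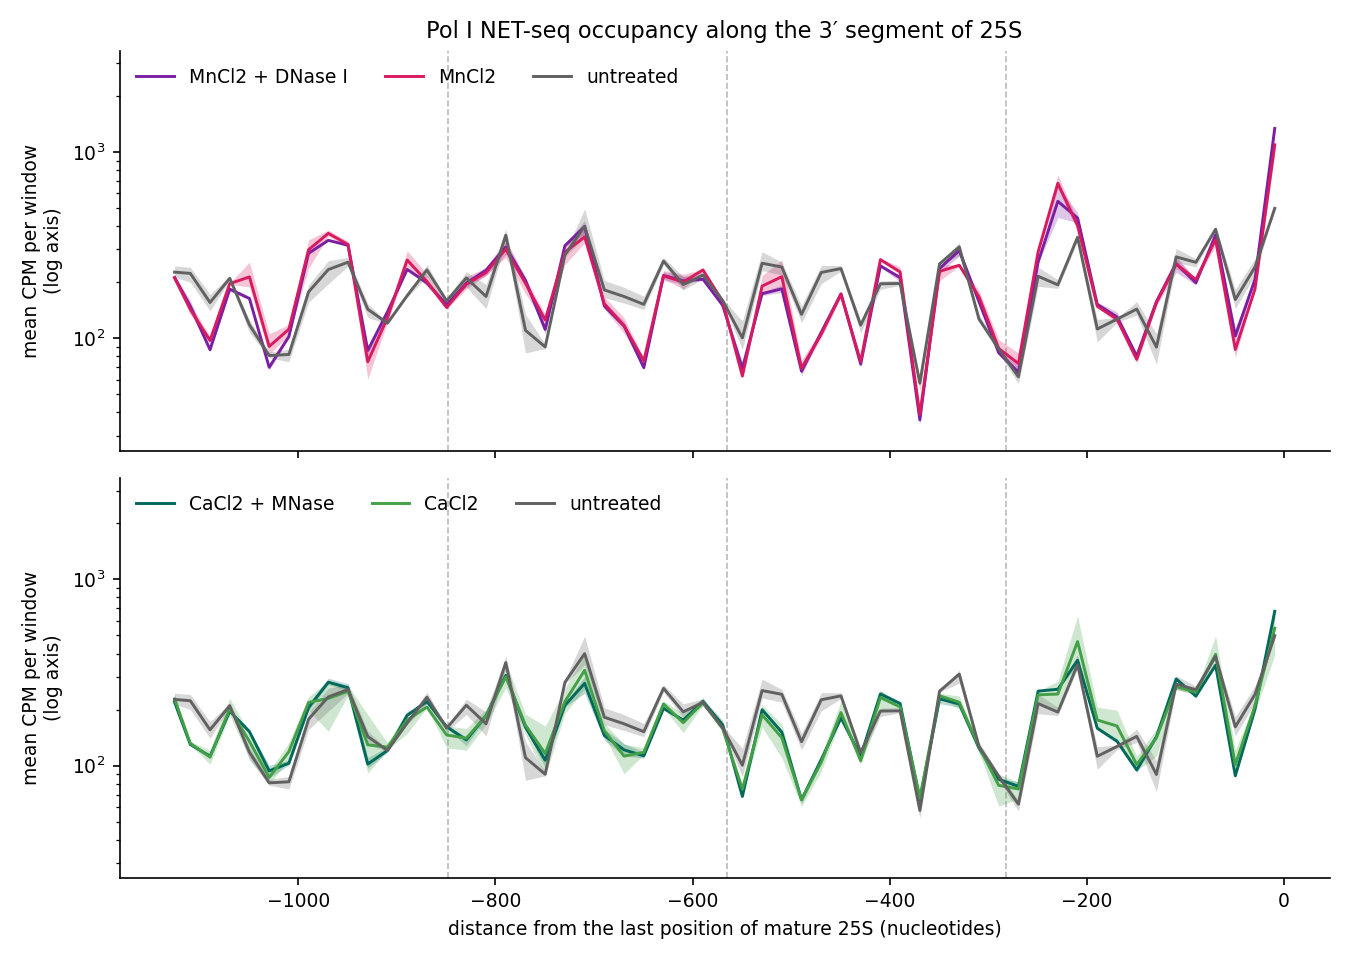
Mean CPM in windows of 20 positions (log axis) against the distance from position 6647, for MnCl2 + DNase I, MnCl2 and untreated above and for CaCl2 + MNase, CaCl2 and untreated below. Lines are means of 3 libraries, shaded bands run from the lowest to the highest library, and dashed lines bound the sections. The windows of section 3 around 6148 to 6187 sit lower in all treated groups than in untreated, and the last window is highest with MnCl2.

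The region was divided into 4 sections of 283 positions, from 5516, 5799, 6082 and 6365. In every treated group section 3 held less than in untreated and section 4 held more. Section 3, which holds the sarcin-ricin loop, took 4.25% ± 0.0587 of the 35S signal in MnCl2 + DNase I, 4.32% ± 0.146 in MnCl2, 4.16% ± 0.0366 in CaCl2 + MNase and 4.12% ± 0.204 in CaCl2, against 5.11% ± 0.237 in untreated (SD, n = 3 each). Each of the 12 treated libraries was lower than any of the 3 untreated ones. Section 4, which ends at the mature 3′ end, took 8.62% ± 0.289 in MnCl2 + DNase I, 8.27% ± 0.151 in MnCl2, 6.67% ± 0.0986 in CaCl2 + MNase and 6.76% ± 0.232 in CaCl2, against 6.26% ± 0.0534 in untreated (SD, n = 3 each). Here all 12 treated libraries lay above untreated, and the MnCl2 groups lay above the CaCl2 groups. Section 4 holds single positions with large rises, described below, so its share does not describe its 283 positions alike. Position 6646 averaged 17678 CPM in MnCl2 + DNase I, 14512 in MnCl2, 8007 in CaCl2 + MNase and 6081 in CaCl2, against 3779 in untreated. Position 6411 averaged 4387 CPM in MnCl2 + DNase I and 6180 in MnCl2, against 117 in untreated. The share of section 4 without these positions was not computed.

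In sections 1 and 2 all libraries with MnCl2 lay above all libraries with CaCl2. Section 1 took 5.12% ± 0.0598 in MnCl2 + DNase I and 5.43% ± 0.0585 in MnCl2, against 4.84% ± 0.0361 in untreated, and the CaCl2 groups overlapped untreated at 4.78% ± 0.0926 in CaCl2 + MNase and 4.68% ± 0.173 in CaCl2 (SD, n = 3 each). Section 2, which holds the peptidyl transferase loop, was lower with CaCl2, at 5.13% ± 0.137 in CaCl2 + MNase and 5.25% ± 0.350 in CaCl2, against 5.99% ± 0.212 in untreated, and the MnCl2 groups overlapped untreated at 5.86% ± 0.0401 in MnCl2 + DNase I and 5.77% ± 0.106 in MnCl2 (SD, n = 3 each). Over the 5 groups the exact permutation p, adjusted over 4 sections, was 0.000134, 0.00332, 0.00332 and 6.85e-05 for sections 1 to 4. Without replicate 1 of each group the adjusted exact p of section 2 was 0.0762, and without replicate 3 of each group that of section 3 was 0.054.

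**Figure D2:**
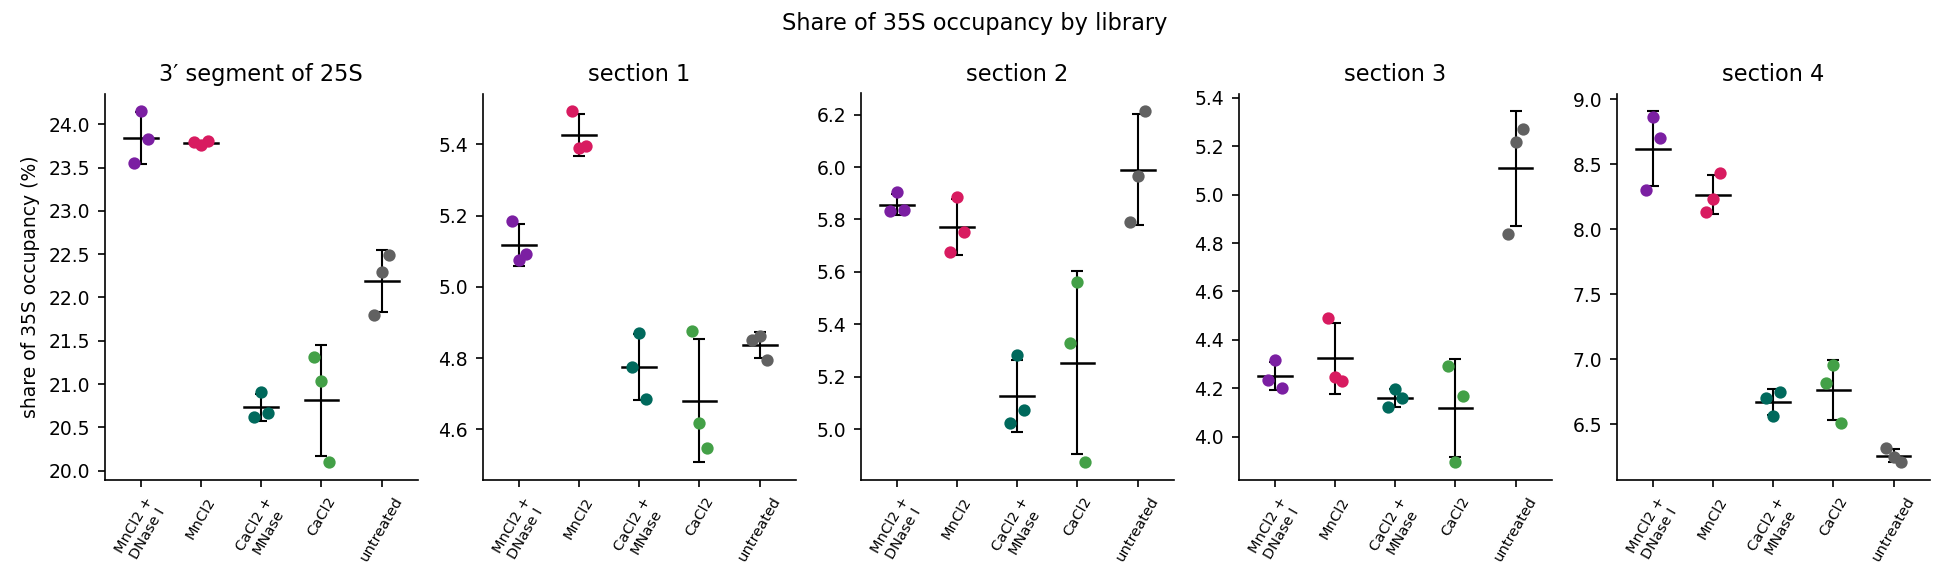
Share of the 35S signal (percent) in the 3′ segment of 25S and in each of its 4 sections, by group. Points are libraries, bars are means and whiskers are SD (n = 3), and the axes do not start at 0. In section 3 the untreated libraries sit above the 12 others, and in section 4 they sit below them.

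The highest position of the region was the same in all 15 libraries, position 6646, a G that is the last base before 3 positions (6647 to 6649) at which every library had 0 CPM. Why the tables hold 0 there is not stated in the sources used here, and 1 of these positions, 6647, belongs to the region. Position 6646 held 16437, 17703 and 18896 CPM in the MnCl2 + DNase I libraries and 15301, 13121 and 15115 CPM in the MnCl2 libraries. It held 8299, 7211 and 8512 CPM with CaCl2 + MNase, 7941, 3910 and 6391 CPM with CaCl2, and 3881, 3659 and 3797 CPM in untreated. Every treated library was above every untreated one, and CaCl2 replicate 2 was the lowest of the CaCl2 libraries. Single positions were tested with limma, a linear model fitted at all positions of the 35S gene above 0 in at least 3 of the 6 libraries of a comparison, with p-values adjusted over all positions tested and log2 changes on the log2(CPM + 1) scale, and folds are ratios of mean CPM. The position was 4.68 times untreated in MnCl2 + DNase I (log2 change 2.22, SE 0.18, limma adjusted p = 2.12e-07) and 3.84 times untreated in MnCl2 (log2 change 1.94, SE 0.25, limma adjusted p = 1.31e-05). CaCl2 + MNase was 2.12 times untreated (limma adjusted p = 0.00133), whereas CaCl2 did not pass (log2 change 0.63, SE 0.41, limma adjusted p = 0.27).

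The U residues at 6645 and 6644 rose in both MnCl2 groups. Position 6645 held 3986, 4412 and 4449 CPM in MnCl2 + DNase I and 3629, 3170 and 4186 CPM in MnCl2, against 2057, 2176 and 1959 CPM in untreated. The CaCl2 groups overlapped untreated there, with log2 changes of 0.07 in CaCl2 + MNase and -0.19 in CaCl2 (limma adjusted p = 0.61 and 0.599). The log2 changes with MnCl2 were 1.05 in MnCl2 + DNase I and 0.82 in MnCl2 (limma adjusted p = 8.29e-06 and 0.00107), and MnCl2 was above CaCl2 (1.01, limma adjusted p = 0.0312). Position 6644 averaged 1535 ± 38.6 CPM in MnCl2 + DNase I and 1060 ± 242 CPM in MnCl2, against 528 ± 42.7 CPM in untreated (SD, n = 3 each; log2 changes 1.54 and 0.98, limma adjusted p = 1.18e-08 and 7.81e-05). At 6644 the CaCl2 groups did not pass against untreated (log2 changes -0.21 in CaCl2 + MNase and -0.53 in CaCl2, limma adjusted p = 0.109 and 0.0696). The last 50 positions before the zeros held 13.5% ± 0.619 of the signal of the region in MnCl2 + DNase I, 11.2% ± 0.812 in MnCl2, 8.88% ± 0.640 in CaCl2 + MNase, 7.76% ± 1.45 in CaCl2 and 7.39% ± 0.244 in untreated (exact permutation test over 5 groups, p = 0.000125). MnCl2 + DNase I lay above MnCl2 in all libraries and CaCl2 + MNase lay above untreated in all libraries, each at the smallest exact p of 0.1, and CaCl2 overlapped untreated. Most of the rise with MnCl2 lay in the base next to the zeros. This base alone rose against untreated by 5.71 percentage points of the region in MnCl2 + DNase I, and the 50 positions by 6.11. These rises were 4.40 and 3.78 points in MnCl2, 2.16 and 1.49 in CaCl2 + MNase, and 1.22 and 0.37 in CaCl2. In MnCl2, CaCl2 + MNase and CaCl2 the other positions of the window together held less than in untreated.

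**Figure D3:**
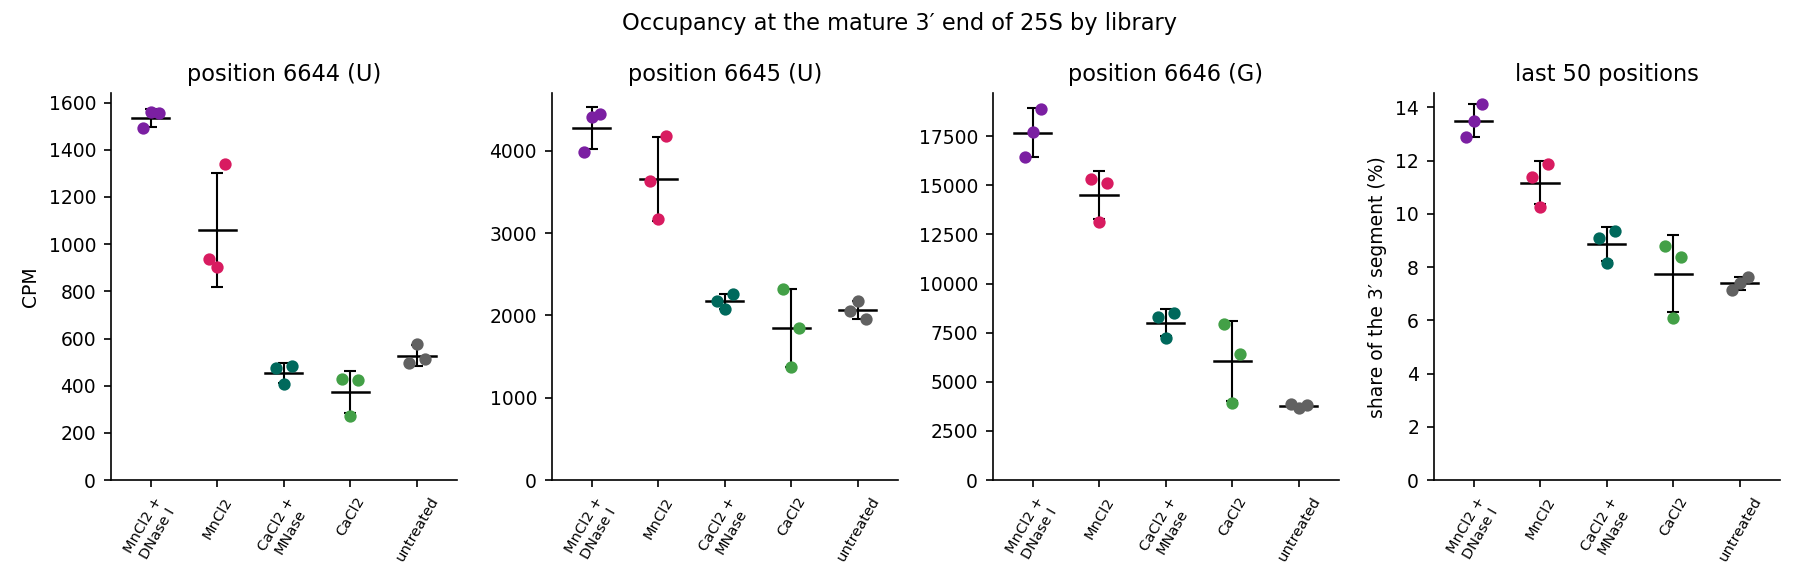
CPM at the 3 positions before the zeros and share of the region (percent) in the last 50 positions, by group. Points are libraries, bars are means and whiskers are SD (n = 3). Position 6646 sits between 13121 and 18896 CPM in the 6 libraries with MnCl2 and between 3659 and 3881 CPM in untreated.

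The occupancy was most concentrated with MnCl2. The 10 highest positions of a library held 15.4% ± 1.37 of the region in MnCl2 + DNase I, 13.9% ± 0.509 in MnCl2, 8.94% ± 0.476 in CaCl2 + MNase, 8.50% ± 0.630 in CaCl2 and 7.60% ± 0.329 in untreated (SD, n = 3 each; exact permutation test over 5 groups, p = 0.000103). The number of positions that together held 50% of the region was 170 to 187 in MnCl2 + DNase I and 193 to 205 in MnCl2, against 207 to 226 in untreated. That number was 238 to 254 in CaCl2 + MNase, above every untreated library, and 222 to 256 in CaCl2, which overlapped untreated.

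After 6646, the positions among the 5 highest of at least 1 group were 5941, 6318, 6319, 6411, 6434 and 6645. Position 6318, a C, averaged 1570 ± 103 CPM in MnCl2 + DNase I, 1323 ± 86.9 in MnCl2, 1283 ± 55.6 in CaCl2 + MNase and 1417 ± 98.0 in CaCl2, against 2025 ± 184 in untreated (SD, n = 3 each). It fell in MnCl2 + DNase I, MnCl2 and CaCl2 + MNase (limma adjusted p = 0.0126, 0.00214 and 0.00207) and missed the threshold in CaCl2 (limma adjusted p = 0.0882). The next base, 6319, a U, averaged 1734 ± 146 CPM in MnCl2 + DNase I, 1392 ± 58.3 in MnCl2, 949 ± 48.2 in CaCl2 + MNase and 1013 ± 104 in CaCl2, against 1408 ± 123 in untreated, and so rose in MnCl2 + DNase I (limma adjusted p = 0.0313) and fell in CaCl2 + MNase (limma adjusted p = 0.00275). Position 5941, a G, averaged 1556 ± 151, 1241 ± 132, 1026 ± 168 and 1194 ± 213 CPM in MnCl2 + DNase I, MnCl2, CaCl2 + MNase and CaCl2 and 1352 ± 444 CPM in untreated, and passed the test in none of the 7 comparisons. Position 6434, an A, averaged 1298 ± 78.5 CPM in MnCl2 + DNase I, 1330 ± 129 in MnCl2, 1862 ± 145 in CaCl2 + MNase, 2322 ± 819 in CaCl2 and 1577 ± 21.2 in untreated, and CaCl2 replicate 2 was the highest library, at 3243 CPM. It fell in MnCl2 + DNase I (log2 change -0.28, limma adjusted p = 0.0226) and passed in no other comparison.

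One position stood out with MnCl2. At position 6411, a U, the MnCl2 + DNase I libraries held 2535, 6261 and 4364 CPM and the MnCl2 libraries 4403, 8140 and 5996 CPM. The CaCl2 + MNase libraries held 160, 164 and 173 CPM, the CaCl2 libraries 191, 94.4 and 144 CPM, and the untreated libraries 119, 125 and 109 CPM. The 2 MnCl2 groups stood more than 10-fold above every other library and overlapped each other, and the position ranked 2 of 1132 in both, against 641 in untreated. MnCl2 + DNase I was 37.4 times untreated (log2 change 5.12, SE 0.23, limma adjusted p = 7.72e-10), MnCl2 was 52.6 times untreated (5.66, SE 0.19, 4.7e-11) and MnCl2 was 43.1 times CaCl2 (5.43, SE 0.30, 1.51e-05). CaCl2 + MNase rose by a log2 change of 0.49 (limma adjusted p = 0.00313), and MnCl2 + DNase I against MnCl2 did not pass (-0.54, limma adjusted p = 0.293). The neighbouring bases held far less. Position 6409, a G, averaged 445 ± 98.5 CPM in MnCl2 + DNase I, 500 ± 62.3 in MnCl2, 172 ± 3.34 in CaCl2 + MNase and 155 ± 31.5 in CaCl2, against 109 ± 14.3 in untreated (SD, n = 3 each). Position 6412, a C, was higher than in untreated in all 4 treated groups, at 153 ± 3.66 CPM in MnCl2 + DNase I, 172 ± 25.3 in MnCl2, 156 ± 12.9 in CaCl2 + MNase and 146 ± 18.8 in CaCl2, against 87.4 ± 11.1 in untreated (SD, n = 3 each). These neighbours were looked up after the values were seen.

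Another position was highest in untreated libraries. Position 6628, a G close to the mature end, held 114, 100.0 and 108 CPM with MnCl2 + DNase I, 121, 103 and 106 CPM with MnCl2, 167, 159 and 156 CPM with CaCl2 + MNase and 178, 162 and 168 CPM with CaCl2, against 790, 860 and 995 CPM in untreated libraries. It ranked between 445 and 680 of 1132 in the treated groups and 15 in untreated, and no treated library came near an untreated one. The log2 changes against untreated were -3.02 in MnCl2 + DNase I, -2.99 in MnCl2, -2.44 in CaCl2 + MNase and -2.37 in CaCl2 (SE 0.10 to 0.13, limma adjusted p = 4.46e-11, 2.08e-10, 5.59e-06 and 8.67e-05). MnCl2 was also below CaCl2 (log2 change -0.62, SE 0.13, limma adjusted p = 0.00598). The base before it, 6627, averaged 161 ± 13.3 CPM in MnCl2 + DNase I and 149 ± 11.1 in MnCl2, against 147 ± 11.8 in untreated (SD, n = 3 each), within the spread between libraries.

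Other named falls were shared by all 4 treated groups and lay in section 3. Position 6168, a G, averaged 76.5 ± 5.39 CPM in MnCl2 + DNase I, 77.7 ± 7.61 in MnCl2, 88.2 ± 3.65 in CaCl2 + MNase and 107 ± 5.77 in CaCl2, against 373 ± 72.6 in untreated (SD, n = 3 each). Its log2 changes against untreated were -2.26 in MnCl2 + DNase I, -2.24 in MnCl2, -2.05 in CaCl2 + MNase and -1.78 in CaCl2 (limma adjusted p = 4.43e-09, 1.42e-08, 3.32e-05 and 0.000243). Positions 6102, 6105 and 6177 fell in all 4 groups as well, with log2 changes between -2.73 and -1.38. Positions 6168 and 6177 lie on both sides of 6173, the G of the ribosomal A-site loop whose ribose is methylated by Spb1.

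The largest named falls by fold were at positions of low occupancy. Position 5891, an A, held 2.85, 3.87 and 1.82 CPM in MnCl2 + DNase I and 2.47, 4.11 and 4.02 CPM in MnCl2, against 60.1, 69.9 and 59.4 CPM in untreated. CaCl2 + MNase was intermediate, at 9.12, 40.8 and 16.5 CPM, and so was CaCl2, at 26.5, 34.0 and 10.1 CPM. MnCl2 + DNase I was 22.2-fold below untreated (log2 change -4.09, SE 0.21, limma adjusted p = 1.93e-09), MnCl2 was 17.9-fold below untreated (-3.84, SE 0.20, 2.47e-09) and MnCl2 was 6.66-fold below CaCl2 (-2.30, SE 0.44, 0.00359). CaCl2 + MNase and CaCl2 also fell against untreated (log2 changes -1.71 and -1.54, limma adjusted p = 0.0113 and 0.0223). Position 5539, a G, was also lowest with MnCl2, with means of 5.01 ± 2.12, 5.62 ± 0.577, 17.8 ± 3.09 and 17.0 ± 1.44 CPM in MnCl2 + DNase I, MnCl2, CaCl2 + MNase and CaCl2, and 45.2 ± 3.34 CPM in untreated (SD, n = 3 each).

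The positions named for a rise with CaCl2 or CaCl2 + MNase were 5636, 5883, 6035, 6446, 6455 and 6475, and all but 6455 also passed as rises in both MnCl2 groups. Position 6475, a G, held 274, 272 and 248 CPM in CaCl2 + MNase and 269, 537 and 333 CPM in CaCl2, against 121, 123 and 120 CPM in untreated (log2 changes 1.12 and 1.58, SE 0.08 and 0.23, limma adjusted p = 6.26e-05 and 0.00228). MnCl2 + DNase I and MnCl2 rose less there, by log2 changes of 0.55 and 0.43 (limma adjusted p = 9.11e-05 and 0.00239), and MnCl2 was below CaCl2 (log2 change -1.15, SE 0.22, limma adjusted p = 0.00372). Position 6446, a U, held 79.9, 181 and 69.8 CPM in CaCl2, with replicate 2 the highest. It rose there by a log2 change of 1.36 (SE 0.34, limma adjusted p = 0.0179), a call that was lost without untreated replicate 1, without replicate 2 and without replicate 3. It also rose in CaCl2 + MNase, MnCl2 + DNase I and MnCl2, by log2 changes of 1.06, 0.59 and 0.77 (limma adjusted p = 0.0011, 0.00106 and 0.000278). Position 5883, a G, rose in all 4 treated groups, with log2 changes between 1.18 in CaCl2 + MNase and 1.41 in MnCl2 + DNase I (limma adjusted p = 0.000708 and 1.09e-06). Positions 5636 and 6035 rose by log2 changes of 0.88 and 0.56 in MnCl2 + DNase I and 0.74 and 0.84 in MnCl2, and by 0.78 and 1.23 in CaCl2 + MNase. In CaCl2, 5636 rose by 1.35 (SE 0.26, limma adjusted p = 0.00671), with libraries at 96.3, 148 and 71.8 CPM, replicate 2 being the highest. Position 6035 missed the threshold in CaCl2 (limma adjusted p = 0.0561). Position 6455, a C, rose in CaCl2 + MNase and CaCl2 (log2 changes 1.15 and 0.95, limma adjusted p = 0.00313 and 0.037) and did not pass in MnCl2 + DNase I or MnCl2 (0.07 and 0.22, limma adjusted p = 0.744 and 0.311), and MnCl2 was below CaCl2 there (-0.73, limma adjusted p = 0.0184).

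Positions 5668 and 5877 were named for rises with MnCl2. Position 5668 rose by log2 changes of 1.49 in MnCl2 + DNase I and 1.70 in MnCl2 (limma adjusted p = 5.03e-05 and 1.9e-05) and did not pass in CaCl2 + MNase or CaCl2 (0.49 and 0.26, limma adjusted p = 0.155 and 0.548). Position 5877 rose in all 4 treated groups, by 1.79 in MnCl2 + DNase I, 1.61 in MnCl2, 0.87 in CaCl2 + MNase and 0.68 in CaCl2 (limma adjusted p = 1.34e-07, 1.68e-06, 0.00285 and 0.0288).

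**Figure D4:**
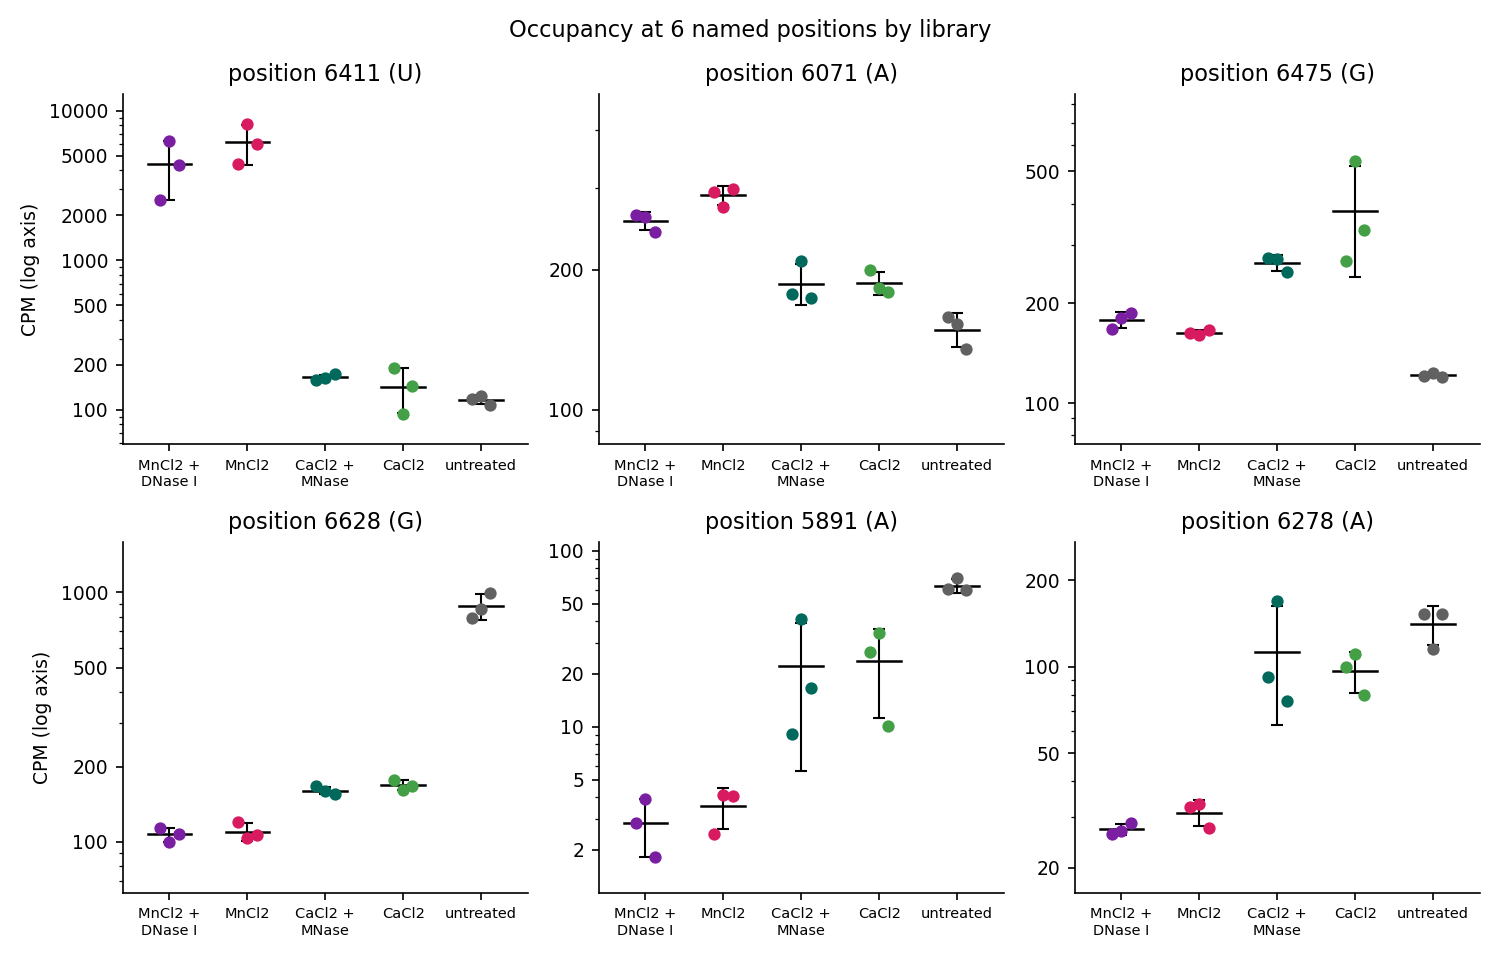
CPM (log axes) by group at 6 named positions, those higher in a treated group above (6411, 6071, 6475) and those lower below (6628, 5891, 6278). Points are libraries, bars are means and whiskers are SD (n = 3). Position 6411 sits between 2535 and 8140 CPM in the 6 libraries with MnCl2 and between 94.4 and 191 CPM in the others, and position 6628 sits between 100.0 and 178 CPM in the treated libraries and between 790 and 995 CPM in untreated.

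The landmark bases of mature 25S moved in both directions with MnCl2. At the sarcin-ricin loop, the A that ricin depurinates, position 6278, held 26.2, 26.9 and 28.6 CPM in MnCl2 + DNase I and 32.4, 33.4 and 27.5 CPM in MnCl2, against 153, 116 and 153 CPM in untreated. The MnCl2 groups were 5.16-fold and 4.52-fold below untreated (log2 changes -2.32 and -2.13, SE 0.13 and 0.15, limma adjusted p = 6.65e-09 and 5e-08), and MnCl2 was 3.11-fold below CaCl2 (limma adjusted p = 0.000403). CaCl2 + MNase, at 92.4, 170 and 76.1 CPM, and CaCl2, at 99.8, 111 and 79.7 CPM, did not pass against untreated (limma adjusted p = 0.25 and 0.0522). At the peptidyl transferase loop, position 6071, the order was turned round: it held 263, 260 and 241 CPM in MnCl2 + DNase I and 294, 274 and 299 CPM in MnCl2, against 159, 153 and 135 CPM in untreated (log2 changes 0.77 and 0.95, SE 0.09 and 0.11, limma adjusted p = 6.27e-06 and 4.2e-06). CaCl2 + MNase rose by a log2 change of 0.32 (limma adjusted p = 0.0339) and CaCl2 did not pass (0.33, limma adjusted p = 0.0735).

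The level changed across the peptidyl transferase loop. The 30 positions after it held 0.415 ± 0.00966 times the mean of the 30 positions before it in MnCl2 + DNase I, 0.36 ± 0.00304 in MnCl2, 0.429 ± 0.0257 in CaCl2 + MNase, 0.472 ± 0.0242 in CaCl2 and 0.531 ± 0.103 in untreated (SD, n = 3 each). All 15 libraries were lower after the loop, with ratios of 0.357 to 0.65. Across the sarcin-ricin loop the same ratio was 1.17 ± 0.00642 in MnCl2 + DNase I, 1.06 ± 0.148 in MnCl2, 1.14 ± 0.0707 in CaCl2 + MNase, 1.23 ± 0.0545 in CaCl2 and 1.32 ± 0.0308 in untreated.

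Among the 5 modified bases looked up, the 2 that carry a methyl group on the Watson-Crick face were near the bottom of the region in every group. These are the 3-methyluridines made by Bmt5, at position 5885, and by Bmt6, at position 6094. Position 5885 averaged 10.5 ± 2.06 CPM in MnCl2 + DNase I, 8.81 ± 1.99 in MnCl2, 21.7 ± 2.17 in CaCl2 + MNase, 19.1 ± 4.48 in CaCl2 and 17.8 ± 8.60 in untreated, and ranked between 1114 and 1122 of 1132. Position 6094 averaged 10.7 ± 0.424 CPM in MnCl2 + DNase I, 9.67 ± 0.416 in MnCl2, 18.2 ± 4.40 in CaCl2 + MNase, 14.8 ± 4.70 in CaCl2 and 20.5 ± 4.25 in untreated, and ranked between 1115 and 1125. The 2′-O-methylated G made by Spb1, at position 6173, was also low, at 14.8, 12.3 and 11.95 CPM in MnCl2 + DNase I, 10.2 to 15.2 in MnCl2, 19.9 to 29.1 in CaCl2 + MNase, 19.7 to 29.7 in CaCl2 and 22.9 to 26.7 in untreated, with ranks of 1106 to 1115. The 5-methylcytosines made by Rcm1 and Nop2, at positions 5529 and 6121, stood near the middle of the region, with ranks of 443 to 515, and passed the test in none of the 7 comparisons. Against untreated, positions 6094 and 6173 fell with MnCl2 + DNase I and with MnCl2 (log2 changes -0.99 to -0.86, limma adjusted p = 0.000295 to 0.000934), position 5885 fell with MnCl2 (log2 change -0.86, limma adjusted p = 0.0181) and missed the threshold with MnCl2 + DNase I (-0.63, limma adjusted p = 0.0601), and none of these 3 passed with CaCl2 + MNase or CaCl2.

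Per-position tests were run with limma on log2(CPM + 1) over all 35S positions above 0 in at least 3 of the 6 libraries of a comparison, and positions with a Benjamini-Hochberg adjusted p under 0.05 were called. In the region 1131 of 1132 positions were tested. The position left out was 6647. Against untreated, MnCl2 + DNase I was higher at 359 and lower at 417 positions, where 27.5% of all 35S positions tested were called higher and 48.2% lower and the region had 31.7% and 36.9%. MnCl2 was higher at 398 and lower at 369 positions, 35.2% and 32.6% of the region, against 28.6% and 44.2% over the gene. CaCl2 + MNase was higher at 307 and lower at 272 positions, against 32.2% and 22.5% over the gene. CaCl2 was higher at 145 and lower at 177 positions, 12.8% and 15.6% of the region, against 16.1% and 16.3% over the gene. The difference between region and gene was not tested.

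These splits depend on the scaling, since the CPM of a library are relative to its own 35S total. The median log2 change over all 35S positions against untreated was -0.24 for MnCl2 + DNase I, -0.19 for MnCl2, 0.11 for CaCl2 + MNase and 0.07 for CaCl2, and with median-ratio scaling it was -0.04, -0.05, 0.00 and 0.02 in the same order of groups. Over the region it was -0.05, 0.02, 0.06 and 0.03 without that scaling. With median-ratio scaling the calls were 484 higher and 301 lower for MnCl2 + DNase I, 476 and 290 for MnCl2, 218 and 340 for CaCl2 + MNase, and 118 and 190 for CaCl2. With edgeR on recovered reads they were 511 higher and 289 lower for MnCl2 + DNase I and 507 and 270 for MnCl2. With each library rescaled to its 25S sum they were 306 higher and 476 lower for MnCl2 + DNase I and 341 and 405 for MnCl2. The count for CaCl2 against untreated, 322 positions in all, was 165, 188 and 136 without untreated replicates 1, 2 and 3, and 444 without CaCl2 replicate 2.

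The calls were also counted by section. In section 3 the lower calls outnumbered the higher ones in all 4 comparisons with untreated, at 142 lower and 51 higher with MnCl2 + DNase I, 128 and 60 with MnCl2, 90 and 46 with CaCl2 + MNase, and 68 and 18 with CaCl2. The share of its 283 positions called lower was near that of the whole gene for the MnCl2 groups, at 50.2% against 48.2% for MnCl2 + DNase I and 45.2% against 44.2% for MnCl2, and was 31.8% against 22.5% for CaCl2 + MNase. The share called higher there was 18.0%, 21.2%, 16.3% and 6.36% in MnCl2 + DNase I, MnCl2, CaCl2 + MNase and CaCl2, against 27.5%, 28.6%, 32.2% and 16.1% over the gene. Lower calls also outnumbered higher ones there under median-ratio scaling, under rescaling to 25S and, for both MnCl2 groups, with edgeR. In section 4 the higher calls outnumbered the lower ones, at 107 higher and 82 lower with MnCl2 + DNase I, 120 and 76 with MnCl2, 111 and 46 with CaCl2 + MNase, and 64 and 28 with CaCl2, except that MnCl2 + DNase I had 92 higher and 97 lower after rescaling to 25S. The share of section 4 called higher was 37.9%, 42.6%, 39.4% and 22.7% in the same order of groups. The share called lower was 29.1%, 27.0%, 16.3% and 9.93%, against 48.2%, 44.2%, 22.5% and 16.3% over the gene. By base, the shares called were set beside those over the gene, which are over all 4 bases, and differences between bases were not tested. A had the highest share of lower calls in MnCl2 + DNase I (40.3%, against 48.2% over the gene), CaCl2 + MNase (31.7%, against 22.5%) and CaCl2 (18.4%, against 16.3%). In MnCl2 it was G, at 34.2%, with A at 33.1% (against 44.2%). A had the lowest share of higher calls in CaCl2 + MNase (16.4%, against 32.2%) and CaCl2 (8.19%, against 16.1%). In MnCl2 + DNase I and MnCl2 it was C (27.6%, against 27.5%, and 32.0%, against 28.6%).

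**Figure D5:**
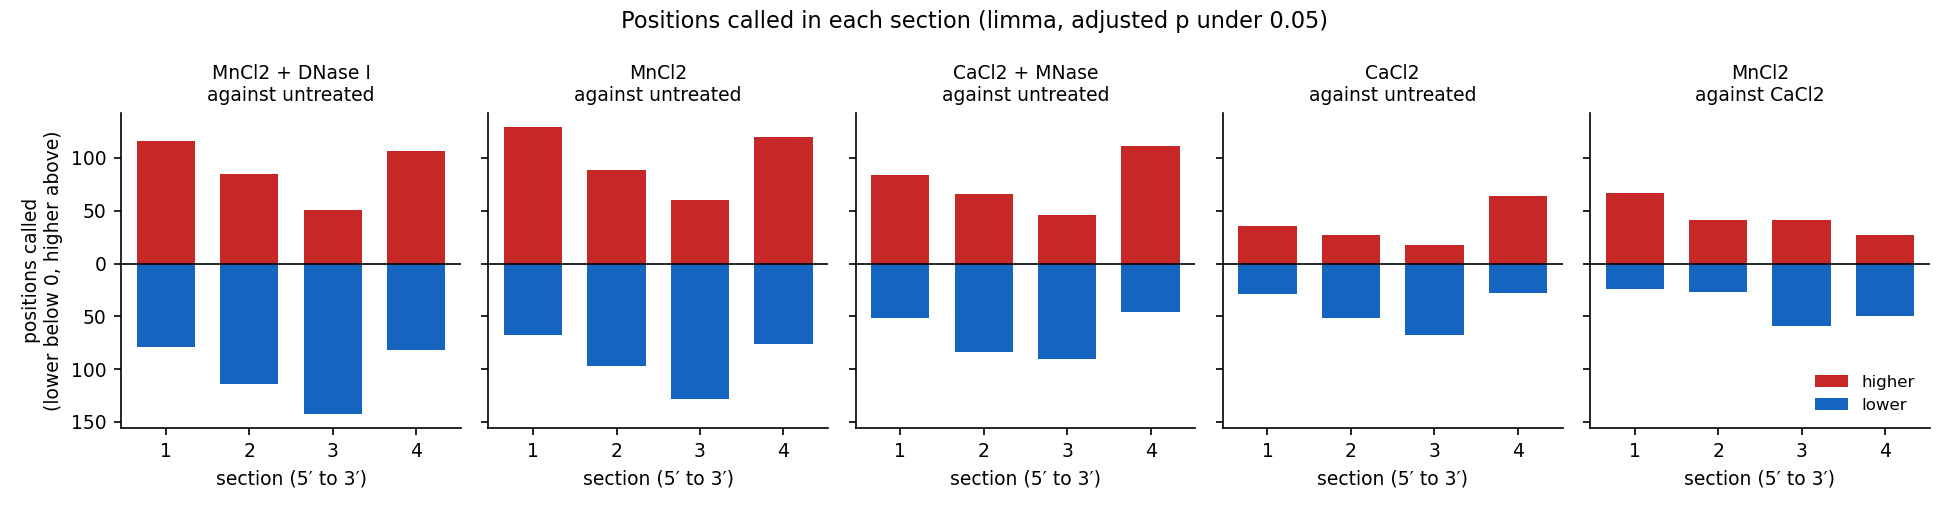
Number of positions called higher (red, above 0) and lower (blue, below 0) in each section of the region, 5′ to 3′, for 5 comparisons (limma, adjusted p under 0.05). Section 3 has the most lower calls in each comparison. For MnCl2 against CaCl2 its split of 41 higher and 59 lower turns to 86 higher and 17 lower with median-ratio scaling. Section 4 has more higher than lower calls in each comparison with untreated, except MnCl2 + DNase I after rescaling to 25S.

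MnCl2 was also compared with CaCl2. These lysates differed in the concentration of the cation, the temperature and the time of incubation as well, so the effects of these and of the cation itself cannot be told apart. MnCl2 was higher than CaCl2 at 176 and lower at 160 positions of the region, 15.6% and 14.1%, against 9.54% and 32.6% of all 35S positions. Segment 1 of 25S had 9.89% higher and 23.4% lower, and segment 2 had 12.8% and 14.1%. The same-numbered libraries of these groups deviated together, and with the replicate number as a block 352 positions were called, against 336 without it. The median log2 change over all 35S positions was -0.27, and -0.03 with median-ratio scaling. The split moved with the scaling, to 359 higher and 55 lower with median-ratio scaling and to 138 and 212 after rescaling to 25S. The count was 197, 187 and 166 without MnCl2 replicates 1, 2 and 3, and 421 without CaCl2 replicate 2. In section 1 MnCl2 was higher at 67 and lower at 24 positions, and in section 4 it was higher at 27 and lower at 50, a split that turned to 64 higher and 14 lower with median-ratio scaling. Its share of the 35S signal in section 4 was the higher one. Position 6646 itself did not pass between MnCl2 and CaCl2 (log2 change 1.31, SE 0.70, limma adjusted p = 0.158), with CaCl2 replicate 2 at 3910 CPM and the other CaCl2 libraries at 7941 and 6391 CPM.

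Few positions were called between a nuclease and its cation alone. DNase I in MnCl2 called 2 positions higher and 1 lower, where 0.0595% and 0.178% of all 35S positions were called, and 297 of the 1131 positions had an unadjusted p under 0.05 (26.3%, against 20.5% over the gene). Position 6058, a U 13 bases before the peptidyl transferase landmark, fell to 110, 112 and 104 CPM in MnCl2 + DNase I, against 176, 170 and 162 CPM in MnCl2 (log2 change -0.63, SE 0.10, limma adjusted p = 0.00971). Position 6317, a U, rose to 604, 698 and 674 CPM, against 384, 449 and 491 CPM in MnCl2 (log2 change 0.58, SE 0.11, limma adjusted p = 0.0345). The other rise, named after its values were seen, was position 6642, an A near the mature end, at 614, 639 and 641 CPM in MnCl2 + DNase I and 423, 374 and 487 CPM in MnCl2 (log2 change 0.57, SE 0.10, limma adjusted p = 0.0345). These 3 calls depended on the fit: the count was 0 without MnCl2 + DNase I replicate 1, 2 or 3, 1 without MnCl2 replicate 2, and 49 and 41 without MnCl2 replicates 1 and 3.

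MNase in CaCl2 called 0 positions higher and 0 lower, where 0% and 0% of all 35S positions were called by limma. At an unadjusted p under 0.05 there were 14 of the 1131 positions tested in the region (1.24%). Over the gene there were 156 of the 6841 positions tested, a larger share. edgeR was not run on this pair because the reads of 2 of its libraries were not recovered. Position 5683, an A, had the largest rise among positions whose groups did not overlap, with a mean of 287 ± 7.63 CPM in CaCl2 + MNase and 218 ± 71.2 CPM in CaCl2 (log2 change 0.45, limma adjusted p = 0.928), and position 6594, a G, had the largest such fall, with 42.5 ± 6.26 CPM in CaCl2 + MNase and 63.1 ± 17.9 CPM in CaCl2 (log2 change -0.54, limma adjusted p = 0.928). The spread between the CaCl2 libraries was the wider one at both positions. The difference between the 2 nuclease effects was called at 0 positions by limma (edgeR not run). At an unadjusted p under 0.05 it had 150 positions of the region, 13.3% against 9.76% over the gene.

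The base at the most occupied positions was compared last. Among the top 2.5% of positions, 28 in each library, the share of U was 27.4% ± 2.06 in MnCl2 + DNase I, 26.2% ± 2.06 in MnCl2, 22.6% ± 2.06 in CaCl2 + MNase, 21.4% in each CaCl2 library and 20.2% ± 2.06 in untreated (SD, n = 3 each; exact permutation test over 5 groups, adjusted p = 0.0392 over 4 bases). It did not pass among the top 5% of positions, where the order was another one, with U at 21.6% in MnCl2 + DNase I and 26.3% in untreated (exact adjusted p = 0.236), nor with the replicate block (exact adjusted p = 0.107) or without replicate 1, 2 or 3 of each group (0.0635, 0.476 and 0.597). The shares of A, C and G did not pass (exact permutation test, adjusted p = 0.906, 0.575 and 0.575). Weighted by signal, reads ending in G made up 27.1% ± 0.506 of the region in MnCl2 + DNase I, 25.8% ± 0.461 in MnCl2, 26.3% ± 0.400 in CaCl2 + MNase and 25.4% ± 0.364 in CaCl2, against 22.9% ± 0.489 in untreated, with all 12 treated libraries above the 3 untreated ones. Position 6646, itself a G, decided this for MnCl2. Without it, a setting added after the data were seen, the share was 21.3% ± 0.620 in MnCl2 + DNase I and 20.9% ± 0.484 in MnCl2, against 21.6% ± 0.447 in untreated, so the direction turned and the groups overlapped. In CaCl2 + MNase and CaCl2 it was 23.3% ± 0.141 and 23.1% ± 0.876, and those 6 libraries still lay above untreated (SD, n = 3 each). G makes up 26.3% of the bases of the region.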

How the data were processed

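Per the study's methods, the authors removed duplicate reads by molecular identifier, cut adaptors, aligned reads to R64 and counted 3′ ends per position. The submitters' processing notes name cutadapt (3.4), STAR (2.7.1a), SAMtools (1.6), bedtools (2.28.0), bcl2fastq (2.20.00) and R (4.0.2). The deposited values are CPM of the 35S gene up to T1, in 7 tables; their ratio and p-value columns were not used. Groups came from the sample titles. CPM were whole multiples of 1 read at 99.9% to 99.99% of positions in 13 libraries (tolerance 0.02 of a read).

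limma (3.58.1, in R 4.3.3) was fitted to log2(CPM + 1), a scale that understates changes of low positions, over the whole 35S gene for the 6 libraries of a pair, or the 12 treated libraries for the difference between nucleases. edgeR (4.0.16) on recovered reads called 777 positions of the region against untreated with MnCl2, 800 with MnCl2 + DNase I, and 5 between these. Shares were computed with Python (3.11.15) and tested by exact permutation of libraries. Scripts were tested on simulated data. Same-numbered MnCl2 and CaCl2 libraries deviated together (correlations of deviations 0.149, 0.214 and 0.115). The p-values and counts of this pair nevertheless come from fits without pairing, and the replicate number was a block only in an alternative.

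Named were, per comparison with untreated, the 3 largest rises and falls among called positions whose groups did not overlap, with a larger mean of at least 20 CPM and 10 positions apart, 1 of each in the other comparisons, the 5 highest positions of each group, the 3 before the zeros and the landmarks. Members and lists were chosen with earlier results of these data known.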

Additional observations from a re-analysis of the deposited data

Results flagged for a closer look

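One value differed between the nucleases by an exact permutation test of the difference itself. On the log2 scale, DNase I changed the share of the 35S signal in section 1 by -0.08 relative to MnCl2 and MNase changed it by 0.03 relative to CaCl2, so that the MNase effect minus the DNase I effect was 0.114 (exact permutation p = 0.035 over 400 relabellings within the pairs). The adjusted p over the 8 quantities tested was 0.28. The shares were 5.19%, 5.07% and 5.09% with MnCl2 + DNase I and 5.49%, 5.39% and 5.39% with MnCl2, without overlap, and 4.77%, 4.87% and 4.68% with CaCl2 + MNase and 4.88%, 4.62% and 4.55% with CaCl2, with overlap.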

How the results depend on the processing

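Counts of called positions for CaCl2 + MNase, MnCl2 and MnCl2 + DNase I against untreated stayed within 1.5 times their value under every alternative run (466 to 596, 687 to 777 and 692 to 800). For CaCl2 against untreated (322) the count was 520 with all 15 libraries in one fit and 136 to 444 with 1 library left out. For MnCl2 against CaCl2 (336) it was 522 with all 15 libraries in one fit and 166 to 421 with 1 library left out. For MnCl2 + DNase I against MnCl2 (3) it was 0 with no filter on low values, 0 with all 15 libraries in one fit, 5 with median-ratio scaling, 5 with edgeR and 0 to 49 with 1 library left out. The adjusted exact p ranged from 0.0212 to 0.0762 for section 2 and from 0.024 to 0.054 for section 3 with a replicate number left out, and for U among the top positions from 0.0635 to 0.597, with 0.236 for the top 5% and 0.107 with the replicate block. For 28 called results at named positions, 335 of 350 alternatives kept the call, 15 lost it and 0 changed direction, and 2 results that were not called stayed so under 24 alternatives. Without position 6646, added after the data were seen, the share of signal ending in G differed from untreated by -0.359 percentage points in MnCl2 + DNase I and -0.668 in MnCl2, against 4.15 and 2.82 with it. The cause of these changes was not tested.

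With the replicate number as a block, MnCl2 + DNase I against MnCl2 had 1 call and MnCl2 against CaCl2 had 352. The block lowered the count for CaCl2 against untreated to 238. The labels give only a replicate number for every pair. Between CaCl2 + MNase and CaCl2 the correlations of deviations were -0.376, 0.383 and 0.468 for replicates 1, 2 and 3. Every library of MnCl2 + DNase I and MnCl2 correlated best with its own number, but these correlations were low, at 0.0429, 0.0913 and 0.101 for replicates 1, 2 and 3. The count stayed at 0 for CaCl2 + MNase against CaCl2 and for the difference between the nuclease effects under every alternative run. edgeR was not run for the pairs with CaCl2 or CaCl2 + MNase. Positions near 1 read, under 0.353 CPM, cannot be resolved at this depth.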
